A study of Mus musculus with 12 samples.

Results

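The genes described here are the transcription factors that read out nuclear β-catenin and the corepressors they carry without it: the 4 mouse TCF/LEF genes (*Tcf7*, *Lef1*, *Tcf7l1* and *Tcf7l2*) and 5 genes of the Groucho-related TLE family (*Tle1*, *Tle2*, *Tle3*, *Tle4* and *Tle6*). They were chosen by name, and all 9 were found by Ensembl identifier among the 41444 genes of the deposited expression table. RNA was measured in mouse bone marrow pre-B cells that had been cultured in IL7, transformed with a *BCR-ABL1* retrovirus and then withdrawn from IL7, a model of B cell acute lymphoblastic leukaemia. The cells were homozygous for a floxed β-catenin gene (*Ctnnb1* fl/fl) and carried the ERT2 vector, which has no Cre, so that β-catenin was not deleted in either group. All cells received 1 µM 4-OHT, the active form of tamoxifen, over 2 days. The 3 control libraries received nothing else by their labels, and the 3 treated libraries also received 40 nM LY2090314, an inhibitor of the kinase GSK3, for 1 day, although a figure legend of the study gives a shorter exposure. The same legend describes the replicates as biological and from separate mice, but no source used here ties a column to a mouse. The age of the mice and whether the cultures were clonal were not given in the sources used here.

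TCF/LEF proteins share an HMG box through which they bind DNA, and an N-terminal region through which most of their isoforms bind β-catenin. GSK3 phosphorylates β-catenin and thereby marks it for destruction. When GSK3 is inhibited β-catenin can accumulate, enter the nucleus and replace TLE proteins on TCF/LEF factors. TLE proteins do not bind DNA themselves. They are tetrameric scaffolds with WD40 repeats that many DNA-binding repressors recruit, among them Runx, Hes, Pax5 and Prdm1. In lymphocytes *Tcf7* (encoding TCF-1) and *Lef1* are best known from early T cell development, and *Lef1* is also expressed in B cell progenitors.

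The values are rlog values, which are log2-scale read counts adjusted for library size and shrunk for genes with few reads. Differences are treated minus control on that scale. Of the 9 members, 6 had a mean of at least 3 over the 6 libraries and were tested, within a limma fit across 11536 genes. All 6 passed a Benjamini-Hochberg adjusted p of 0.05, 4 with higher and 2 with lower values in treated cells. In the same fit 50.1% of all genes passed, 24.8% with higher and 25.3% with lower values, so that a call alone does not set the members apart from other genes. The sizes ranged more widely: 2 of the 6 differed by at least 1 on the log2 scale, which 6.01% of all genes did, and the median size of the difference over all genes was 0.24. In each of the 6 tested members the control and treated libraries did not overlap, which held for 58.6% of all genes. An exact two-sided permutation test therefore gave p = 0.10 for each of them, the smallest value that 3 against 3 libraries allow.

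Over all genes the SD of the difference between libraries was 0.185 to 0.239 within control pairs, 0.186 to 0.253 within treated pairs and at least 0.581 between groups. Treated libraries 1 and 2 carry the same library number in their column names, and whether they came from separate mice could not be read from the columns. If they did not, the spread between them may be technical. Read depth is unknown, because the deposited values are not counts.

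Sequences around annotated starts are shown for 3 members. They are the member with the largest difference (*Tcf7*), the member with the largest fall (*Tcf7l2*) and the only tested member whose windows held either motif searched (*Lef1*). Each is the RefSeq window of 250 bases before to 50 bases after an annotated start on GRCm38.p6, written 5′ to 3′ along the gene. Capitals mark TGGGAA, the core letters bound by Ikaros. The *Tcf7* window is chr11:52282965-52283264 on the minus strand, the *Lef1* window is chr3:131110047-131110346 on the plus strand and the *Tcf7l2* window is chr19:55741560-55741859 on the plus strand.
Tcf7: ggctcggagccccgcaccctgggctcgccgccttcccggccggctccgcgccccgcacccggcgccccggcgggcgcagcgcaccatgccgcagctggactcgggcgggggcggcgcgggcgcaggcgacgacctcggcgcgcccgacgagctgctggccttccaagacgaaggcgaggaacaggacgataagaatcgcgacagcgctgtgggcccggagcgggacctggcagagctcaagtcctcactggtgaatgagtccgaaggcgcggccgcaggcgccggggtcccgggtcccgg
Lef1: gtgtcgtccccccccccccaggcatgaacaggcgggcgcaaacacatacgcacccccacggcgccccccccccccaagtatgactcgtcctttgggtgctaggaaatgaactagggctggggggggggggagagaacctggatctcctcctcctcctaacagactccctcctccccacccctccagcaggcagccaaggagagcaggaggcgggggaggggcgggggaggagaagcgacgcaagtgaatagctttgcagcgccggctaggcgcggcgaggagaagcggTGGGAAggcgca
Tcf7l2: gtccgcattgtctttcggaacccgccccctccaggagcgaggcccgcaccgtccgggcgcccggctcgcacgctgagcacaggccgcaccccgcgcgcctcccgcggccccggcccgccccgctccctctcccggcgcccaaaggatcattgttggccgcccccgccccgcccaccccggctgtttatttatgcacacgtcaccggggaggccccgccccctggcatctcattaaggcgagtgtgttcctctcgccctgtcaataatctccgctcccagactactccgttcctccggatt

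All 9 members had at least 1 RefSeq window, 16 windows in all. The TCF/LEF core CTTTGAT, searched on both strands, was in 0 of the 16 windows and in 3.73% of all 32851 mouse windows. The Ikaros core TGGGAA, also searched on both strands, was in 5 of the 16 windows and in 25.6% of all windows. It lay in 3 windows of *Lef1*, the first of which is shown above with its match 39 bases after the start. The first and second *Lef1* windows overlap and share that match, and the match in the third began 44 bases after its own start. The other matches were in *Tcf7l1*, on the strand opposite to the gene 55 bases before the start, and in *Tle6*, 7 bases after the start. These are matches of letters and not evidence of binding, and their absence elsewhere concerns only these windows. In the *Tcf7* window shown, an ATG before the annotated start opens a reading frame without a stop up to the window's end. That window may thus hold coding sequence of a longer form, and it need not be the promoter of every *Tcf7* form. The windows shown were rich in G and C, at 76.3% for *Tcf7*, 67.3% for *Lef1* and 70.0% for *Tcf7l2*, against a median of 52.7% over all windows. This did not hold for every window of these genes. Those not shown were at 64.3% for *Tcf7*, 42.0% for *Tcf7l2*, and 67.3%, 51.7% and 43.7% for *Lef1*.

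*Tcf7* showed the largest difference of the members. The gene lies on the minus strand at chr11:52252371-52283014 (GRCm38), and its rlog values were 7.95, 7.83 and 7.99 in control libraries 1 to 3 and 10.51, 10.52 and 10.61 in treated libraries 1 to 3. The highest control and lowest treated libraries were 2.53 apart, far beyond the spread within either group. The means were 7.92 ± 0.081 and 10.55 ± 0.052 (SD, n = 3 each), a difference of 2.62 (SE 0.0645, 95% CI 2.47 to 2.77, adjusted p = 7.67e-08, limma), or 6.17-fold. It ranked 66 among the 11536 genes by size of rise. TCF-1 exists in long forms that bind β-catenin and short forms that do not, and values per gene do not separate them.

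*Lef1* encodes the other TCF/LEF factor with high values in these cells and rose by less. Its values were 11.28, 11.29 and 11.03 in control libraries 1 to 3 and 12.05, 12.07 and 11.87 in treated libraries 1 to 3 (chr3:131110471-131224356, plus strand). Library 3 was the lowest in both groups, and the lowest treated library was still above the highest control. The difference was 0.80 (SE 0.0853, 95% CI 0.60 to 0.99, adjusted p = 0.000164, limma), a 1.74-fold rise from 11.20 ± 0.145 to 12.00 ± 0.110 (SD, n = 3 each). *Lef1* has an annotated exon overlap with *Gm43352* on the opposite strand, and whether counting used the strand of the stranded library was not given in the sources used here.

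*Tcf7l2*, which encodes TCF-4, the main TCF of the intestinal epithelium, fell. Its values were 7.08, 7.17 and 6.78 in control libraries 1 to 3 and 5.934, 6.004 and 5.752 in treated libraries 1 to 3 (chr19:55741820-55933654, plus strand). Every treated library was below every control library, and library 3 was again the lowest of each group. The means were 7.01 ± 0.201 and 5.90 ± 0.130 (SD, n = 3 each), a difference of −1.11 (SE 0.126, 95% CI −1.41 to −0.82, adjusted p = 0.000214, limma), or 2.17-fold lower. It ranked 165 by size of fall and had the widest control spread of the 6 tested members.

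*Tcf7l1*, which encodes TCF-3, the TCF best known as a repressor in embryonic stem cells, had low values with no separation. They were 1.41, 1.59 and 1.44 in control libraries 1 to 3 and 1.42, 1.38 and 1.36 in treated libraries 1 to 3 (chr6:72626378-72789254, minus strand). The groups overlapped, with means of 1.48 ± 0.094 and 1.39 ± 0.031 (SD, n = 3 each) and an exact two-sided permutation p of 0.20. Its mean was below the limit for testing. Without that limit its difference of −0.09 had an adjusted p of 0.302 in limma, and at this level shrinkage makes differences smaller.

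**Figure D1:**
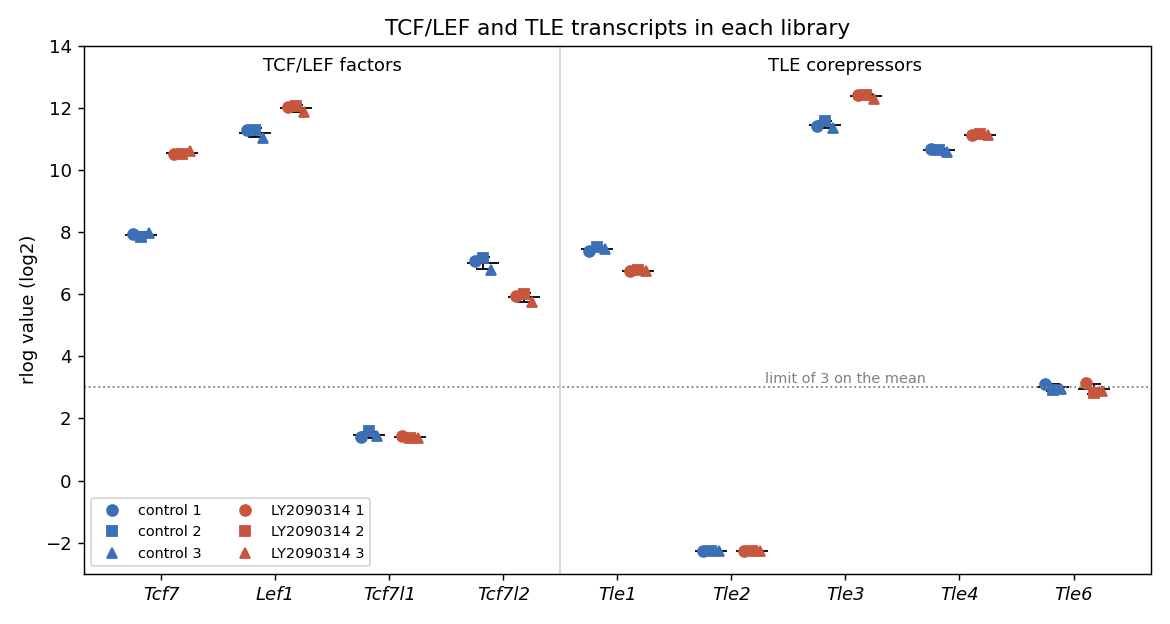
Rlog value (log2, vertical axis) of each of the 9 members in the 3 control (blue) and 3 LY2090314 (red) libraries, with horizontal lines at group means, bars of 1 SD and a dotted line at the limit of 3 on the mean. *Tcf7* rises from 7.92 to 10.55, *Tcf7l2* falls from 7.01 to 5.90, and the groups of *Tcf7l1*, *Tle2* and *Tle6* are not separated.

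Among the TLE genes, *Tle3* and *Tle4* rose and *Tle1* fell. *Tle3* (chr9:61372366-61418497, plus strand) had values of 11.42, 11.59 and 11.37 in control libraries 1 to 3 and 12.43, 12.41 and 12.29 in treated libraries 1 to 3. All treated libraries lay above all controls, and the difference was 0.92 (SE 0.0689, 95% CI 0.76 to 1.08, adjusted p = 2.37e-05, limma), a 1.89-fold rise and the largest of the family. *Tle4* (chr19:14448150-14598051, minus strand) had values of 10.68, 10.65 and 10.58 in control libraries 1 to 3 and 11.12, 11.15 and 11.12 in treated libraries 1 to 3. Its libraries were the closest of any tested member within the treated group (SD 0.014, n = 3), and the difference of 0.49 (SE 0.0462, 95% CI 0.38 to 0.60, adjusted p = 8.26e-05, limma) was the smallest of the 6, or 1.41-fold. Both genes encode full-length corepressors with the N-terminal domain that binds TCF/LEF factors.

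*Tle1* encodes a full-length corepressor of the same build. Its values were 7.38, 7.52 and 7.47 in control libraries 1 to 3 and 6.75, 6.80 and 6.75 in treated libraries 1 to 3 (chr4:72117142-72200919, minus strand). The difference was −0.69 (SE 0.0798, 95% CI −0.87 to −0.50, adjusted p = 0.000246, limma), or 1.61-fold lower, with no overlap between groups. *Tle1* overlaps the opposite-strand gene *Gm11250*, which was listed at 0 in every library.

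The remaining members gave no detectable difference. *Tle2*, which encodes the last of the full-length proteins, was at −2.28 in all 6 libraries (chr10:81574561-81590845, plus strand), the lowest value in the table, so that the data give no measure of change for it. *Tle6* (chr10:81590904-81601073, minus strand) encodes a divergent relative known from the oocyte, where it belongs to the subcortical maternal complex. It had values of 3.13, 2.91 and 2.96 in control libraries 1 to 3 and 3.13, 2.83 and 2.89 in treated libraries 1 to 3, which overlapped (exact two-sided permutation p = 0.60). Its mean of 2.97 was just under the limit for testing, and without that limit its difference of −0.05 had an adjusted p of 0.726 in limma.

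**Figure D2:**
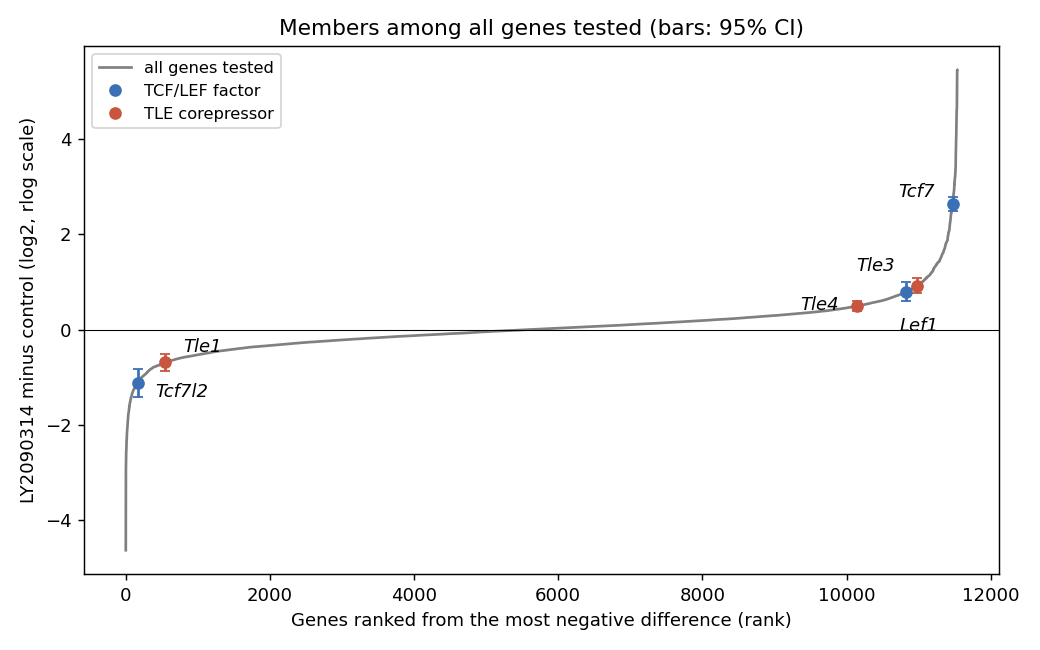
Difference between LY2090314 and control cells (log2, vertical axis) for all 11536 tested genes, ranked from the most negative (grey line), with the 6 tested members marked and bars for the 95% confidence interval. *Tcf7* stands on the steep upper end at 2.62, *Tcf7l2* and *Tle1* on the lower end at −1.11 and −0.69, and *Tle4*, *Lef1* and *Tle3* between 0.49 and 0.92.

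The library order within groups was partly shared among the members and was not compared with that of all genes. Of the 6 tested members, control library 3 was the lowest control in 4 and control library 2 the highest in 4. Treated library 3 was the lowest treated library in 4 and treated library 2 the highest in 4. *Tcf7* departed from this order, with its highest value of each group in library 3. Library numbers here only name columns and do not pair a control with a treated library.

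Levels can be compared between genes only after division by length, for which the union of annotated exons was used. On this scale (rlog value minus log2 of length in kb) the control levels of *Tle4* (8.13), *Lef1* (8.06) and *Tle3* (7.92) stood at the top, and the libraries of neighbours in this order overlapped. *Tcf7* followed at 6.53, then *Tle1* at 4.33, *Tcf7l2* at 3.88, *Tle6* at 1.37, *Tcf7l1* at −0.49 and *Tle2* at −4.92. In treated cells the order began with *Tcf7* at 9.16, followed by *Lef1* at 8.86, *Tle3* at 8.83 and *Tle4* at 8.62, and *Tle1* at 3.64 stayed above *Tcf7l2* at 2.76. *Lef1* and *Tle3* were not separable there, since their libraries overlapped. The place of *Tcf7* depends on the length used. With the longest annotated transcript in place of the exon union, treated *Lef1* was at 10.12, *Tle3* at 9.26 and *Tcf7* at 9.24. This moved *Tcf7* from the first place to below *Lef1*, while *Tcf7* and *Tle3* were not separable, since their libraries overlapped. In control cells *Lef1* then stood at 9.33, above *Tle4* at 8.46 and *Tle3* at 8.35.

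Expressed as shares of the summed per-length level of the 4 TCF/LEF genes, *Tcf7* made up 24.0%, 22.3% and 27.8% in control libraries 1 to 3 and 53.3%, 52.9% and 57.9% in treated libraries 1 to 3. The mean share of *Tcf7* was thus 24.7 ± 2.77% in control and 54.7 ± 2.78% in treated cells (SD, n = 3 each). *Lef1* went the other way, from 71.2 ± 2.48% to 44.6 ± 2.73%, although its own level rose. *Tcf7l2* went from 3.92 ± 0.304% to 0.652 ± 0.048%, and *Tcf7l1* was under 1% in every library. With the longest transcript as length the *Tcf7* share went from 12.7% to 34.9% and *Lef1* from 82.7% to 64.2%, so that the direction was the same while *Lef1* remained the larger of both. The summed TCF/LEF level was 1.47 higher on the log2 scale in treated cells (2.78-fold), or 1.16 higher (2.24-fold) with the longest transcripts. Shares and sums follow from the values already given and were not tested.

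Within the sum of the 4 full-length TLE genes, *Tle3* and *Tle4* held nearly all of the level in every library. The share of *Tle3* was 43.4%, 46.5% and 44.0% in control libraries 1 to 3 and 53.9%, 53.2% and 51.5% in treated libraries 1 to 3. That of *Tle4* was 53.1%, 49.8% and 52.1% in control libraries 1 to 3 and 44.7%, 45.4% and 47.0% in treated libraries 1 to 3. *Tle4* was thus the larger share in each control library and *Tle3* in each treated library. With the longest transcripts this order held except in control library 2, where *Tle3* was at 47.3% and *Tle4* at 47.1%. *Tle1* went from 3.72 ± 0.207% to 1.45 ± 0.034% (SD, n = 3 each). The summed TLE level was 0.67 higher on the log2 scale in treated cells (1.59-fold), and 0.66 higher (1.58-fold) with the longest transcripts.

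**Figure D3:**
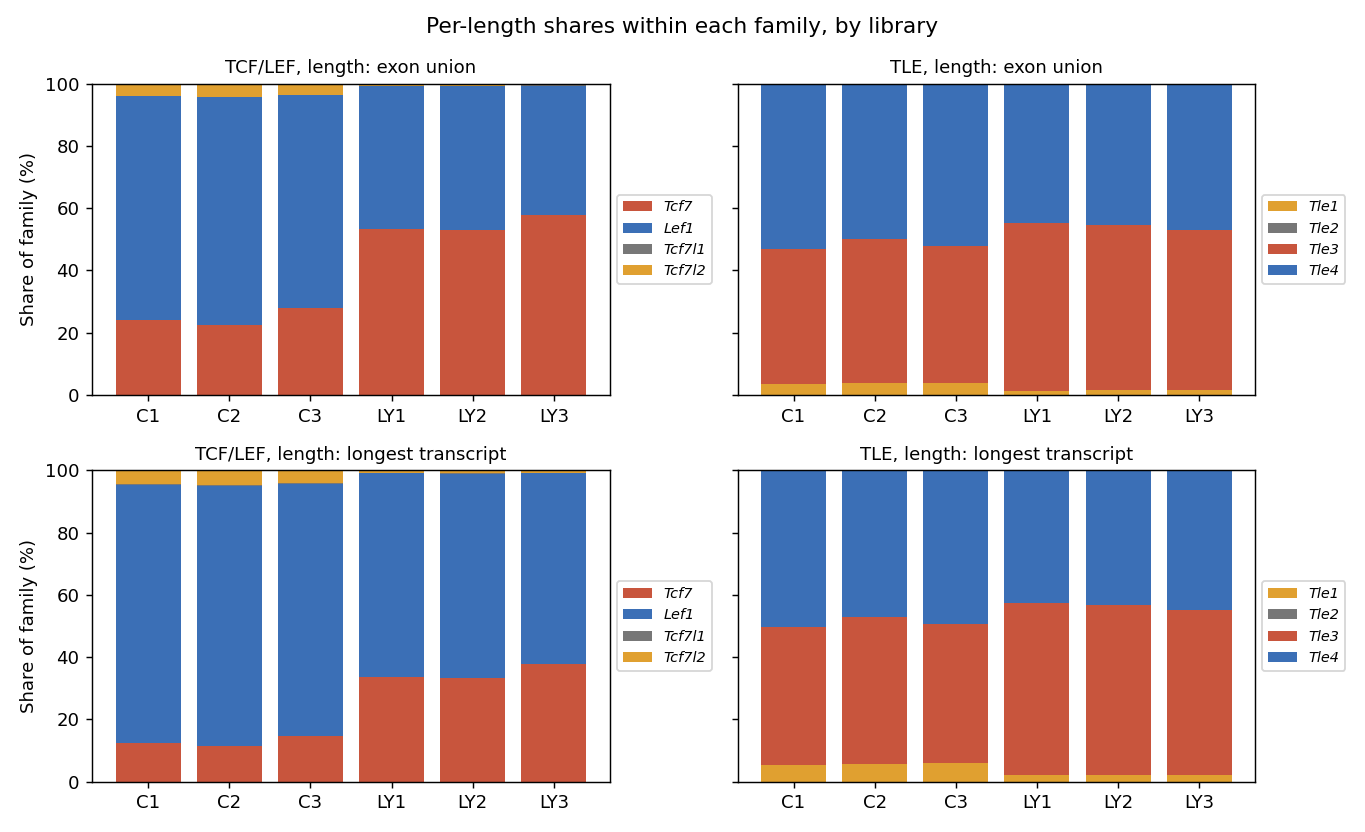
Share of each gene (%, vertical axis) in the summed per-length level of its family in control libraries (C1 to C3) and LY2090314 libraries (LY1 to LY3), for TCF/LEF on the left and TLE on the right, with the exon union as length above and the longest transcript below. The *Tcf7* share is larger in each treated library under both lengths, with means of 24.7% and 54.7% for the exon union. *Tle3* replaces *Tle4* as the larger TLE share, except that with the longest transcript *Tle3* is already slightly larger in C2.

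The genes with 6-library profiles nearest to those of the members past a difference of 1 were found by the root mean square difference of their values, each taken relative to the gene's control mean. Nearest to *Tcf7* were *Chst2* (root mean square difference 0.0453), which encodes a carbohydrate sulfotransferase, *Tmem108* (0.0607) and *Ptprf* (0.0652), which encodes the receptor phosphatase LAR. Their differences were 2.60, 2.70 and 2.64 on the log2 scale. Nearest to *Tcf7l2* were *Mreg* (0.0908), *Synj2* (0.0982), which encodes a phosphoinositide phosphatase, and *Myo7a* (0.104), which encodes an unconventional myosin. These were chosen among 11536 genes for their likeness over 6 libraries, which is a description only.

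Transcripts for the proteins that join β-catenin on TCF/LEF factors moved in both directions and mostly by little. Of 16 cofactor genes 13 were tested, of which 4 were higher, 5 were lower and 4 did not pass, with a median difference of 0.00 against 0.01 over all genes. This is 69.2% called, against 50.1% of all genes. *Ctnnb1* itself fell by 0.35 (adjusted p = 0.000296, limma). Among genes past the threshold, the 3 largest falls were those of the ATPases *Ruvbl2* (−0.65) and *Ruvbl1* (−0.57) and of *Bcl9* (−0.50), which tethers Pygopus to β-catenin. The 3 largest rises past the threshold were those of the histone methyltransferase *Kmt2a* (0.85, adjusted p = 0.00568, limma), the chromatin remodeller *Smarca4* (0.31) and the acetyltransferase *Ep300* (0.22). *Kmt2a* was uneven within groups, with 11.63, 11.54 and 11.10 in control libraries 1 to 3 and 12.46, 12.46 and 11.91 in treated libraries 1 to 3.

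Among 21 genes for other corepressors and antagonists of TCF or β-catenin, 17 were tested. Of these 5 were higher, 4 were lower and 8 did not pass. This is 52.9% called, near the 50.1% of all genes. The median difference, with signs kept, was −0.0007 against 0.01 over all genes, so it does not measure the size of single changes. The genes that fell included *Tbl1x* (−0.26, adjusted p = 0.00294, limma), which encodes a subunit of a nuclear corepressor complex, and the histone deacetylase *Hdac2* (−0.19). The largest rises were those of *Ctnnbip1* (0.43, adjusted p = 0.00746, limma), whose product ICAT keeps β-catenin from TCF, *Rcor1* (0.40) and *Zbtb33* (0.37), which encodes Kaiso. *Aes*, the short TLE relative that lacks the WD40 repeats, was at 4.20 in both groups (adjusted p = 0.998, limma).

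Of 21 classical TCF target genes 12 were tested, of which 8 were higher, 2 were lower and 2 did not pass, with a median difference of 1.10 against 0.01 over all genes. This is 83.3% called, against 50.1% of all genes, of which 24.8% were higher and 25.3% lower. The list was chosen with earlier results of these data known, so this share is a description only. In cells with stabilized β-catenin the study had already reported *Nkd1*, *Nkd2*, *Kremen1* and *Axin2* as raised and *Myc* as repressed. It had named the members *Tcf7* and *Tle3* among the raised genes as well, so their rises here were not unreported before. *Nkd1*, a feedback inhibitor of the pathway, had the largest rise of all 11536 genes (5.44), followed in this list by the Dickkopf receptor *Kremen1* (3.38) and by *Axin2* (1.67), a scaffold of the β-catenin destruction complex. The 2 that fell were *Myc* (−2.64), the growth regulator, and *Lgr5* (−1.44), the R-spondin receptor. Another 9 targets were below the limit for testing, among them *Sp5* (0.88 in control and 1.04 in treated cells) and *Rnf43* (−1.49 and −1.46).

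Transcripts for the DNA-binding partners of TLE proteins were split. Of 19 listed genes 9 were tested, and all 9 passed, 5 with higher and 4 with lower values, with a median difference of 0.16 against 0.01 over all genes. Of all genes 50.1% passed, 24.8% with higher and 25.3% with lower values. This list too was chosen with earlier results known, and the study had reported *Prdm1* as raised and *Pax5* as lowered by β-catenin stabilization. The control mean of *Runx2* (2.97) was under the limit, which the gene passed through its treated libraries. The largest rise among those tested was that of *Prdm1*, the regulator of plasma cell differentiation, from 6.07 to 10.53 (difference 4.46, adjusted p = 1.58e-08, limma), followed by *Runx1* (1.04), the haematopoietic regulator, and *Runx2* (0.37). The largest falls were those of *Pax5*, the B cell identity factor, from 14.05 to 12.51 (−1.54, adjusted p = 9.79e-06, limma), of the Notch target *Hes1* (−1.004) and of *Mycn* (−0.63). The remaining 10 partners, among them *Hes7*, *Hey1*, *Foxa1* and *Six3*, were below the limit for testing.

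**Figure D4:**
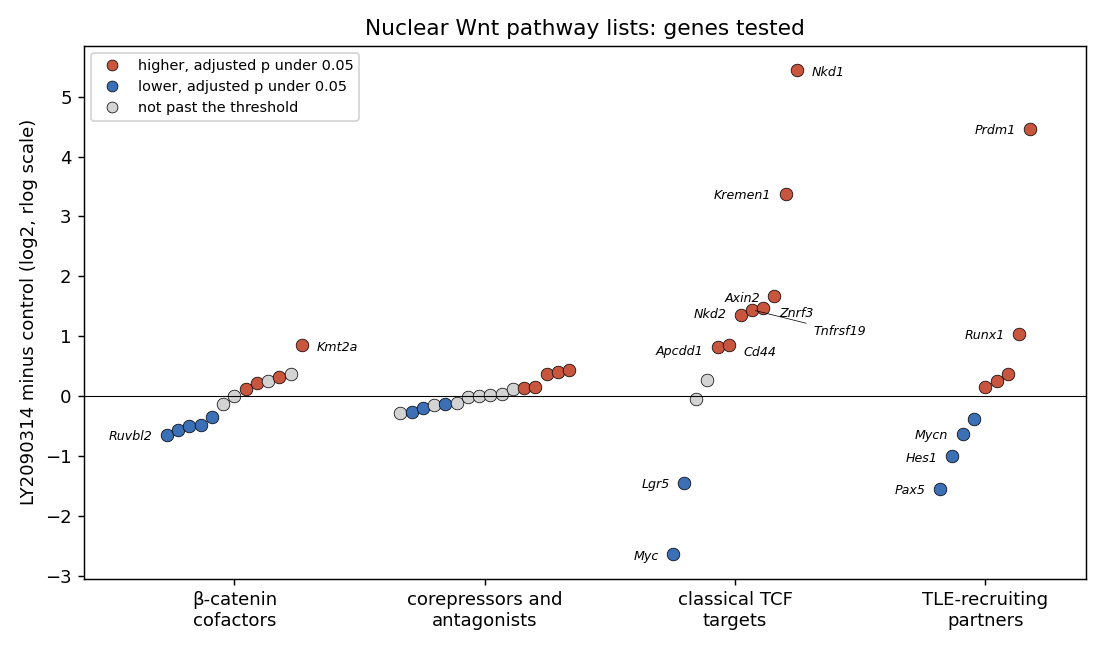
Difference between LY2090314 and control cells (log2, vertical axis) for the tested genes of 4 lists that are reported here, ordered by size within a list, with genes past an adjusted p of 0.05 in red (higher) or blue (lower) and others in grey. Cofactors and corepressors lie within 1 of 0, while targets reach from −2.64 (*Myc*) to 5.44 (*Nkd1*) and TLE partners from −1.54 (*Pax5*) to 4.46 (*Prdm1*).

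Markers were read to check the labelled cell type and because *Tcf7* and *Lef1* are also genes of T cells. All 8 B lineage markers were above the limit, and 7 of them were lower in treated cells, against 25.3% of all genes, among them the surrogate light chain genes *Igll1* (−1.42) and *Vpreb1* (−1.27), while *Cd79a* did not pass. Their summed log2 level was 15.92 to 16.02 in control and 15.49 to 15.67 in treated libraries. Of 10 T lineage markers 3 were tested, and all 3 passed, against 50.1% of all genes. *Cd5* (1.70) and *Cd2* (0.54) were higher and *Thy1* (−0.28) was lower. The 10 markers had a summed log2 level of 7.91 to 8.32 in control and 8.69 to 8.94 in treated libraries. The defining T cell genes *Cd3e*, *Cd3g* and *Bcl11b* were at −2.28 in all libraries. The other untested T lineage markers were above that value. *Gata3* was at 2.79 in control and 3.18 in treated cells, with 3.68 in treated library 3. *Cd3d* was at −1.14 and −1.13, *Cd8a* at −1.47 and −1.48, and *Cd4* at −1.96 and −1.95. Of 6 myeloid markers only *Lyz2* was tested, and it rose by 0.53. The summed myeloid level was 5.84 to 6.04 in control and 6.39 to 6.51 in treated libraries. *Mpo* and *Elane*, like the erythroid marker *Hba-a1*, were listed at 0 in every library, as were 21786 genes in all. Such a 0 does not place a gene above those at −2.28, although the sums counted it as a log2 value. None of 3 erythroid markers reached the limit, with summed levels of 2.61 to 2.73 and 2.59 to 2.64. The part of these markers in the differences of *Tcf7* and the other members was not tested. In RNA from whole cultures, fewer cells of a type and less RNA per cell cannot be told apart.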

How the data were processed

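Polyadenylated RNA was sequenced by the authors as stranded paired-end libraries. Per the submitters' processing notes, FastQC 0.11.9, SAMtools 1.7, Picard 2.23.8, Salmon and DESeq2 1.30.1 were used with GRCm38. The authors deposited 1 table of log2 (rlog) values for 41444 genes, and no counts were used here. Shrinkage in rlog reduces differences of genes with few reads. Columns were matched to groups by name: 3 ERT2 and 3 ERT2 with LY2090314. The other 6 columns, whose names combine Cre and LY, were not used.

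For genes with a mean of at least 3, groups were contrasted in limma 3.58.1 (R 4.3.3, mean-variance trend), with Benjamini-Hochberg adjustment over 11536 genes and a threshold of 0.05. The calculation was tested on simulated data. Symbols were matched for 41157 identifiers. Positions and lengths came from GENCODE vM21 and promoters from RefSeq, both on GRCm38. Named were all members, the 3 largest rises and 3 largest falls past the threshold in each list, the 3 nearest profiles of members past 1 on the log2 scale, and *Ctnnb1*, *Aes*, the markers and some untested genes, added after their values were seen. One gene that this rule names is not reported here. Members and lists were chosen with earlier results of these data known. Alternatives were no trend, no limit or a limit of 5 on the mean, median centring, quantile normalization, leaving out each library, libraries sharing a number counted as 1 sample, a threshold of 0.01, a minimum log2 difference of 1, and the longest transcript as length.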

Additional observations from a re-analysis of the deposited data

How the results depend on the processing

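All 6 tested members kept their direction and an adjusted p under 0.05 (limma, Benjamini-Hochberg) under every alternative fit that changed the trend, the limit on the mean, the scaling or the libraries, and at a threshold of 0.01. Over these fits *Tcf7* ranged from 2.58 to 2.66, *Lef1* from 0.71 to 0.86, *Tcf7l2* from −1.23 to −1.04, *Tle1* from −0.76 to −0.66, *Tle3* from 0.87 to 0.98 and *Tle4* from 0.46 to 0.51. With a minimum log2 difference of 1, the count of members fell from 6 to 2 (*Tcf7* and *Tcf7l2*), since *Lef1* (0.80), *Tle1* (−0.69), *Tle3* (0.92) and *Tle4* (0.49) are smaller. The same minimum left 693 of 5778 genes in all, 0 cofactors, 0 corepressors and 4 TLE partners. At a threshold of 0.01 the corepressor count was 5 in place of 9. With the longest transcript as length the changes in share were 22.2 percentage points for *Tcf7*, −18.5 for *Lef1* (−26.6 with the exon union) and −3.41 for *Tle1* (−2.27). Of the calls over all genes 49.5% were higher, against 43.4% after quantile normalization and 45.7% after median centring. No paired analysis was possible because the columns carry no replicate number that matches the titles, so the replicate block was not run. Depth is unknown, and rlog shrinkage limits what can be said of *Tcf7l1*, *Tle2* and *Tle6*.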
